A study of Rattus norvegicus with 12 samples.

Results

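Matricellular proteins are secreted into the extracellular matrix, where they act less as scaffold than as signals, binding integrins, syndecans, growth factors and structural fibres. In the vessel wall several are known to rise when smooth muscle cells leave the contractile state for the synthetic state. In the synthetic state these cells migrate, divide and lay down matrix. The genes described here are 10 listed as matricellular or synthetic phenotype genes, which need not all share these traits. They were Spp1, Thbs1, Thbs2, Thbs3, Tnc, Postn, Sparc, Fn1, Mgp and Islr, taken by symbol from the 33294 genes of the count table. All 10 were present and all 10 passed the filter on low counts, among 18438 genes tested. Spp1, Tnc and Islr were chosen by the large fold changes they showed in these same libraries, so their values are given as a description with no test. The other 7 were listed by name, also with earlier results of these data known, and their p-values should be read with that limit.

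The libraries were made from poly(A) RNA of PAC1 cells, a rat smooth muscle cell line derived from pulmonary artery, to ask how 3 splicing regulators contribute to the smooth muscle transcriptome. The study describes these knockdowns as made in PAC1 cells cultured for a differentiated phenotype. It reports that the control cells here were less differentiated than those of its other RNA-seq experiment. There were 4 groups of 3 libraries, which received 90 pmol of a control siRNA (C2 in the labels) or of 1 siRNA against RBPMS (RBPMS-KD), RBFOX2 (FOX2-KD in the labels, RBFOX2-KD here) or QKI (QKI-KD, gene symbol Qk). All groups carried the same reagent and were transfected a second time, after 24 h per the labels, with harvest 48 h later; longer intervals stand in the methods of the study. Each knockdown rests on a single siRNA in a single cell line, and 3 libraries per group are replicates whose spread the tests measure.

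Library totals ran from 111 to 152 M counts. Levels are in CPM (the count as a share of the TMM-adjusted library total, scaled up), given as mean ± SD of 3 libraries, and are compared only within a gene because no transcript lengths were used. Each targeted gene was lower in its own knockdown, Rbpms at 7.21 ± 0.301 against 40.7 ± 2.60 CPM in control, Rbfox2 at 37.3 ± 0.943 against 154 ± 4.37 CPM and Qk at 26.6 ± 0.649 against 233 ± 7.04 CPM. The 8 smooth muscle markers were all tested, with Acta2 at 990 ± 16.3 CPM in control, and their summed level was 2109 to 2175 CPM in control, 1069 to 1176 CPM in RBPMS-KD, 827 to 924.5 CPM in RBFOX2-KD and 1441 to 1526 CPM in QKI-KD. The markers did not move as one. At an adjusted p below 0.05, 30.4%, 30.1% and 32.9% of all genes were higher in RBPMS-KD, RBFOX2-KD and QKI-KD, and 29%, 30.1% and 34% lower. Of the 8 markers, 2 were higher in each knockdown, and 6, 5 and 5 were lower. Among the higher, chosen after their values were seen, Myh11 rose 2.07-fold in RBFOX2-KD (adjusted p 3.45e-09) and Myocd 1.72-fold in QKI-KD (adjusted p 2.01e-09). In bulk RNA, fewer cells of one type and less RNA per cell cannot be told apart. The 4 macrophage markers summed to 1.40 to 1.56 CPM in control, 1.97 to 2.45 CPM in RBPMS-KD, 1.68 to 2.31 CPM in RBFOX2-KD and 5.40 to 5.93 CPM in QKI-KD, where Csf1r made up 3.63 CPM, while Ptprc and Adgre1 had at most 4 counts in any library. The 5 endothelial markers summed to 7.71 to 9.33 CPM in control and to between 3.76 and 7.35 CPM in the knockdowns, and Kdr had at most 6 counts. Cdh5 made up 6.77 CPM in control and was lower in the 3 knockdowns at an adjusted p below 0.05, as was Vwf in RBFOX2-KD. Pecam1 and Tie1 rose in RBPMS-KD (3.25- and 3.36-fold) and QKI-KD (2.41- and 4.42-fold), on at most 49 and 12 counts in any library. The part of these markers in the values below was not tested.

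The 250 bases before the annotated transcript start were read for the members on which the results turn, because these members moved in different patterns across the knockdowns. The windows are those of RefSeq on the assembly GRCr8, given 5′ to 3′ on the gene's strand, and 7 of the 10 members had one. Capitals mark the TATA-like motif TATANA, the GC box core GGGCGG or a CArG box, the element bound by serum response factor in smooth muscle genes, searched on both strands.
Spp1, chr14:5619805-5620054, minus strand: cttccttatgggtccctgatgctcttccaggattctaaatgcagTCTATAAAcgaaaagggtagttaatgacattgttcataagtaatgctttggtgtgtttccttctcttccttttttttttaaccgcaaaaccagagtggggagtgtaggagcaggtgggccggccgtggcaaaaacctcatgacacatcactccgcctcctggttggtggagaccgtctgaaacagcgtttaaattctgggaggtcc
Thbs1, chr3:125510000-125510249, plus strand: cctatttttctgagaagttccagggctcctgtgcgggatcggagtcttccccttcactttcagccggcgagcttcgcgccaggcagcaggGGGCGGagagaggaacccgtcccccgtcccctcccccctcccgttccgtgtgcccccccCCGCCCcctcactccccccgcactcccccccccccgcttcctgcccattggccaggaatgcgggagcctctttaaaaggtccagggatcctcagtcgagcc
Tnc, chr5:82476132-82476381, minus strand: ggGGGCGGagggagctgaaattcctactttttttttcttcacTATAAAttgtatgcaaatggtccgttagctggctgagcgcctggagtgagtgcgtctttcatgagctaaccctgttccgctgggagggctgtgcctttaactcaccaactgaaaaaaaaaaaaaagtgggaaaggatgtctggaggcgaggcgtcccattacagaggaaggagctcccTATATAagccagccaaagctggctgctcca
Islr, chr8:67469259-67469508, minus strand: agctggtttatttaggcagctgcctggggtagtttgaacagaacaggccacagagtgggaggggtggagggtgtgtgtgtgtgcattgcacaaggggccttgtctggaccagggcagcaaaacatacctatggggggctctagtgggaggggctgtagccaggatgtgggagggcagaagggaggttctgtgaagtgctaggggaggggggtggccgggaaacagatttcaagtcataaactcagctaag

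The Tnc window held TATANA with its first base at −30 and at −208 from the start, and the Spp1 window held 2 overlapping matches, at −206 and −204. Thbs1 had GGGCGG at −160 and, on the other strand, at −101, and no TATANA. The Islr window held none of the 3 motifs. Of all 33469 windows of this length, 24.2% held TATANA, 30.5% held GGGCGG and 1.5% a CArG box, against 3, 3 and 0 of the 7 members. These matches describe letters and say nothing of binding.

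Against control, the 10 genes did not move as a block. Thbs1 was higher in the 3 knockdowns and Thbs2 lower. Fn1 and Sparc were lower in RBPMS-KD and QKI-KD, and Mgp was lower mainly in QKI-KD. By edgeR's quasi-likelihood test, at an adjusted p below 0.05 with a log2 fold change beyond 1 in either direction, 2 of the 10 members passed in RBPMS-KD (Thbs1 and Islr), where 9.66% of all genes tested did. In RBFOX2-KD 3 passed (Thbs1, Tnc and Islr) against 11.7% of all genes, and in QKI-KD 4 passed (Spp1, Thbs2, Mgp and Islr) against 17.5%. Since Spp1, Tnc and Islr were listed for these changes, nothing is read from the counts. At an adjusted p below 0.05 alone, 9, 8 and 9 members passed, where 59.4%, 60.3% and 66.9% of all genes did. The median log2 fold change of the 10 members was −0.26, −0.03 and −0.89 in RBPMS-KD, RBFOX2-KD and QKI-KD, beside 0.0085, 0.015 and 0.0070 over all genes. These medians include Spp1, Tnc and Islr, so nothing is read from them either. The 3 comparisons share the control libraries.

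**Figure D1:**
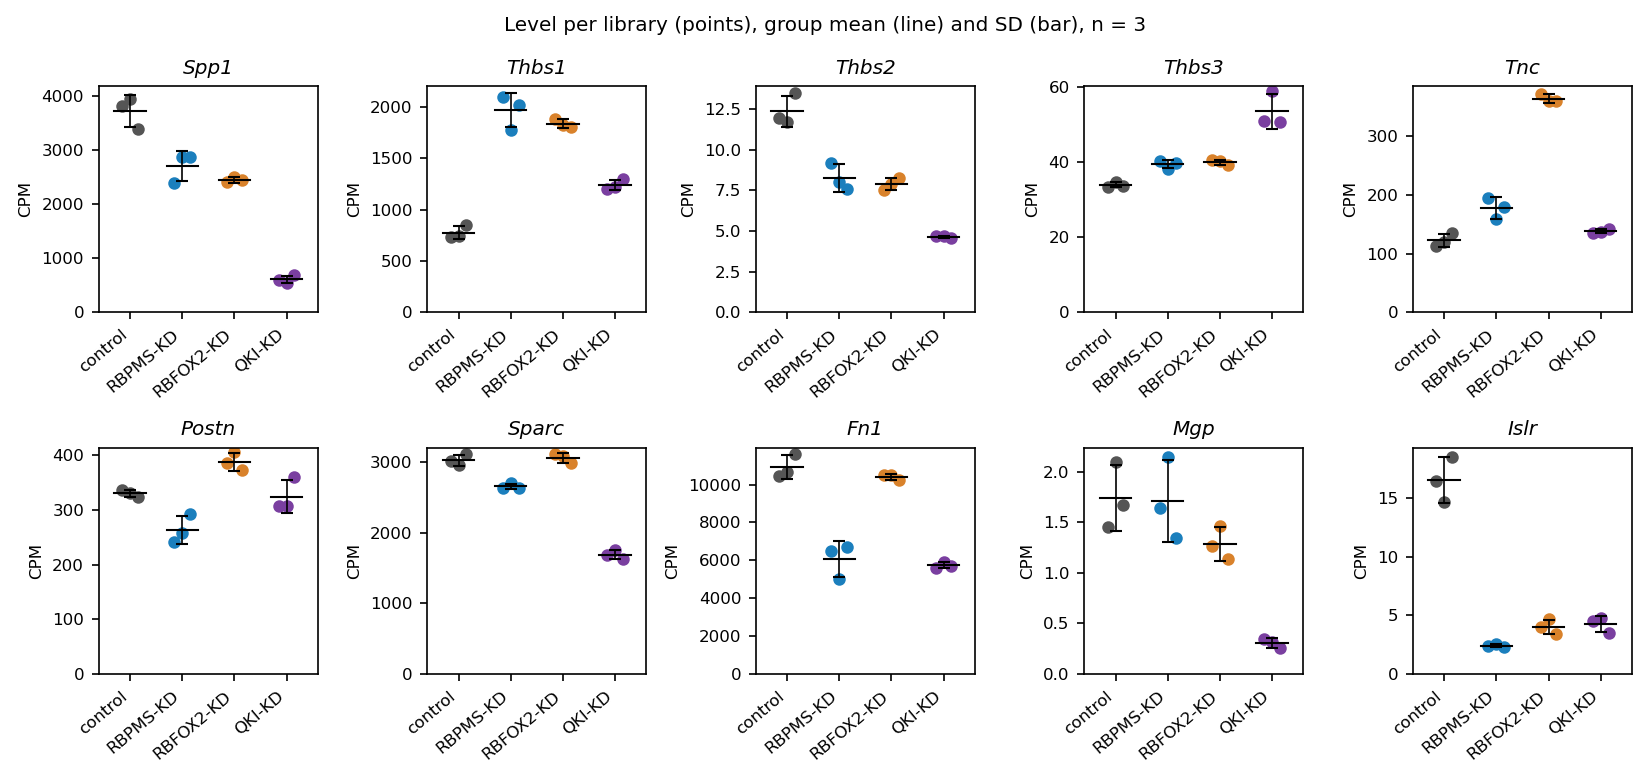
Level of each member in CPM (linear axis from 0, one panel per gene) in the 12 libraries, with points for single libraries, a line for the group mean and a bar for the SD of 3 libraries. Spp1 was at 551 to 688 CPM in the QKI-KD libraries and at 2400.1 CPM or more in the others, whereas Tnc stood highest in RBFOX2-KD, at 359 to 371 CPM.

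Spp1 encodes osteopontin, a phosphorylated ligand of integrins and of CD44 that is often used as a marker of synthetic smooth muscle. It was at 3820.2, 3959 and 3397 CPM in the control libraries. The levels were 2400.1, 2885 and 2872 CPM in RBPMS-KD and 2408, 2516 and 2449 CPM in RBFOX2-KD. In QKI-KD they were 602, 551 and 688 CPM. Every knockdown library thus lay below every control library, and the QKI-KD libraries lay below all others. The log2 fold changes against control were −0.45 (SE 0.076), −0.60 (SE 0.076) and −2.60 (SE 0.081) in RBPMS-KD, RBFOX2-KD and QKI-KD, the last a level 6.07-fold lower. In the normalised table they were −0.27, −0.36 and −2.34.

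Tnc encodes tenascin-C, a large anti-adhesive glycoprotein of injured and remodelling tissue. It was at 113, 119 and 135 CPM in control and at 371, 359 and 359 CPM in RBFOX2-KD. The RBPMS-KD libraries held 195, 158 and 179.6 CPM and the QKI-KD libraries 135, 137 and 142 CPM. RBFOX2-KD stood apart from all other groups, RBPMS-KD lay between it and the rest, and the highest control library and the lowest QKI-KD library overlapped. The log2 fold change was 1.57 (SE 0.066) in RBFOX2-KD, a level 2.96-fold that of control, against 0.54 (SE 0.065) in RBPMS-KD and 0.17 (SE 0.065) in QKI-KD.

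Islr encodes a leucine-rich repeat protein with an immunoglobulin domain that marks mesenchymal and stromal cells. It was at 16.4, 14.6 and 18.5 CPM in control, on 2014 to 2519 counts. The RBPMS-KD libraries were at 2.35, 2.56 and 2.33 CPM. In RBFOX2-KD they were at 3.99, 4.65 and 3.44 CPM and in QKI-KD at 4.5, 4.81 and 3.52 CPM. All 9 knockdown libraries lay far below the lowest control library, and the RBPMS-KD libraries were the lowest of all. Against control this was −2.77 on the log2 scale in RBPMS-KD, −2.04 in RBFOX2-KD and −1.95 in QKI-KD, each with an SE of 0.12. Islr2, which lies next to Islr in the GRCr8 annotation, had a mean of 0.0822 CPM in control.

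**Figure D2:**
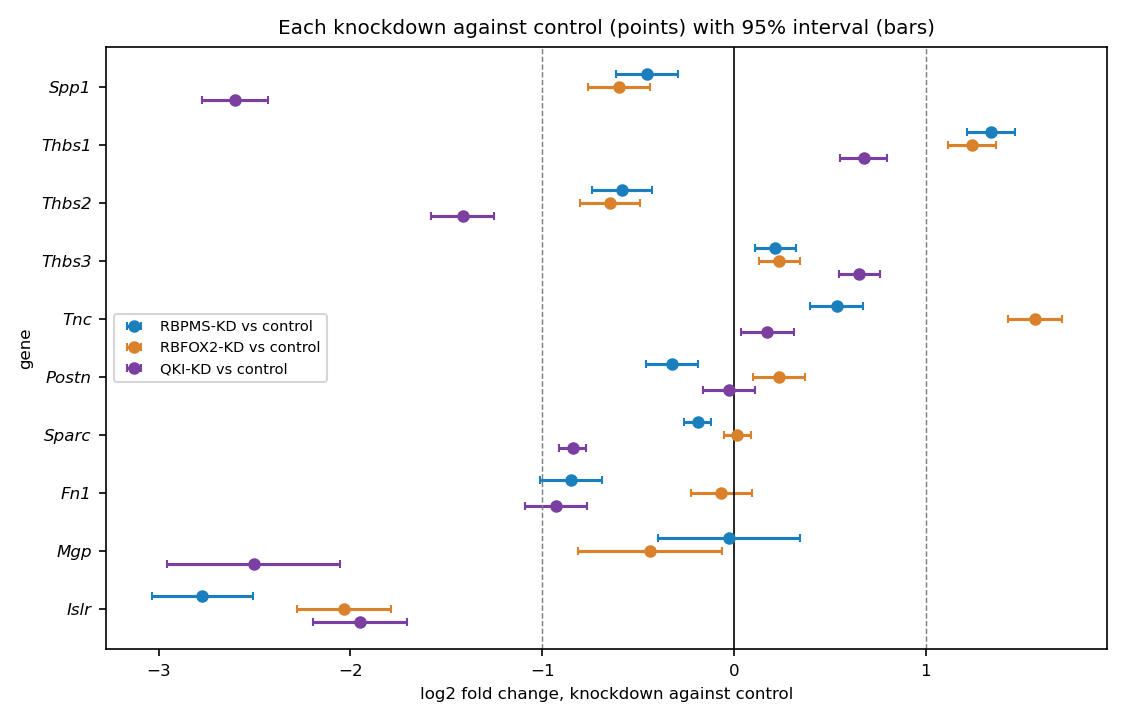
Log2 fold change against control (horizontal axis) of each member (vertical axis), colored by knockdown, with points for the edgeR estimate, bars for its 95% interval and dashed lines at the fold threshold of 1 in either direction. Islr lay beyond −1 in the 3 knockdowns, Spp1, Thbs2 and Mgp only in QKI-KD, and Thbs1 beyond 1 in RBPMS-KD and RBFOX2-KD.

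The thrombospondins are calcium-binding glycoproteins that bridge cells and matrix. Thbs1, which activates latent TGF-beta and signals through CD47 and CD36, was at 737, 747 and 851 CPM in control. It was at 2101, 1781 and 2021 CPM in RBPMS-KD, at 1885, 1825 and 1808 CPM in RBFOX2-KD and at 1205, 1226 and 1299.5 CPM in QKI-KD. No knockdown library overlapped with control, and QKI-KD lay between control and the other knockdowns. Thbs1 rose 2.53-fold in RBPMS-KD (log2 fold change 1.34, SE 0.059, adjusted p 5.37e-12), 2.36-fold in RBFOX2-KD (1.24, SE 0.059, adjusted p 9.56e-12) and 1.60-fold in QKI-KD (0.68, SE 0.058, adjusted p 1.52e-08).

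Thbs2, the closest relative of Thbs1 and an inhibitor of angiogenesis, moved the other way. Its levels were 11.9, 11.7 and 13.5 CPM in control, 9.21, 8.0 and 7.58 CPM in RBPMS-KD, 7.53, 7.92 and 8.29 CPM in RBFOX2-KD and 4.69, 4.69 and 4.56 CPM in QKI-KD. The control libraries were the highest and the QKI-KD libraries the lowest, with no overlap between these and the groups in between. Thbs2 fell by log2 fold changes of −0.58 (SE 0.074, adjusted p 2.75e-06), −0.65 (SE 0.074, adjusted p 7.33e-07) and −1.41 (SE 0.077, adjusted p 3.12e-11) in RBPMS-KD, RBFOX2-KD and QKI-KD. Thbs3, a pentameric thrombospondin, rose by 0.22 (SE 0.051, adjusted p 0.00146) and 0.23 (SE 0.051, adjusted p 6.64e-04) in RBPMS-KD and RBFOX2-KD and by 0.65 (SE 0.051, adjusted p 3.36e-09) in QKI-KD. Its control libraries spanned 33.6 to 34.8 CPM and its QKI-KD libraries 50.7 to 59.1 CPM. Thbs3 lies between Mtx1 and Muc1 in the GRCr8 annotation, and whether counting used strand is not given in the sources used here.

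Fn1 encodes fibronectin, the fibrillar ligand of integrins on which other matrix proteins assemble. It was at 10436, 10674 and 11622 CPM in control and at 10491, 10526 and 10235 CPM in RBFOX2-KD. The RBPMS-KD libraries were at 6468, 4988 and 6725 CPM, and the QKI-KD libraries at 5575, 5898 and 5714 CPM. Control and RBFOX2-KD overlapped, as did RBPMS-KD and QKI-KD, and the pairs lay apart from each other. Fn1 fell 1.80-fold in RBPMS-KD (log2 fold change −0.85, SE 0.076, adjusted p 3.87e-08) and 1.90-fold in QKI-KD (−0.93, SE 0.076, adjusted p 7.39e-09). In RBFOX2-KD the log2 fold change was −0.07, with a 95% interval from −0.23 to 0.093 (adjusted p 0.468).

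These Fn1 values depended on the table. By counts, Fn1 was the gene with rank 2 in each control library, rank 3 in each RBFOX2-KD library, rank 7 in each RBPMS-KD library and rank 3 or 4 in the QKI-KD libraries. Quantile normalisation replaces a value by the mean of its rank, so the authors' normalised table gives Fn1 the same value in the 3 libraries of each of the first 3 groups, with an SD of 0. In that table (log2 of the value + 1, limma) Fn1 was lower in RBFOX2-KD by a log2 fold change of −0.44 (adjusted p 1.75e-05) and lower in RBPMS-KD by −1.27, past both thresholds. In QKI-KD the value there was −0.54 (adjusted p 2.82e-06), smaller in size than by counts. Because of the SD of 0, p-values of Fn1 from that table, here and below, do not measure library spread in control, RBPMS-KD or RBFOX2-KD.

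Sparc encodes a counter-adhesive protein that binds collagen. It fell by 0.84 on the log2 scale in QKI-KD, from 3025 ± 75.5 to 1688 ± 61.9 CPM (SE 0.034, adjusted p 5.24e-13). In RBPMS-KD the level was 2654 ± 41.2 CPM, a fall by 0.19 (SE 0.034, adjusted p 1.15e-04) that was not past the threshold in the normalised table (−0.13, adjusted p 0.0712). In RBFOX2-KD Sparc was at 3060.2 ± 68.9 CPM, a log2 fold change of 0.02 with a 95% interval from −0.055 to 0.088 (adjusted p 0.692), which became 0.17 in the normalised table (adjusted p 0.0248).

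Postn encodes periostin, a fasciclin-domain protein that takes part in collagen assembly. Its levels were 337, 330.0 and 324 CPM in control, 242, 257 and 292 CPM in RBPMS-KD and 386, 406 and 373 CPM in RBFOX2-KD. The control libraries lay between these groups, without overlap. Postn fell by 0.32 in RBPMS-KD (SE 0.064, adjusted p 3.30e-04) and rose by 0.23 in RBFOX2-KD (SE 0.064, adjusted p 0.00469). The QKI-KD libraries, at 306, 307 and 359.9 CPM, spread around control, with a log2 fold change of −0.03 and a 95% interval from −0.16 to 0.11 (adjusted p 0.741).

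Mgp encodes matrix Gla protein, a vitamin K-dependent inhibitor of arterial calcification. Its counts were few, with 178, 312 and 228 in control, 174, 290 and 148 in RBPMS-KD, 175, 206 and 154 in RBFOX2-KD and 48, 36 and 32 in QKI-KD. The QKI-KD libraries lay below all others, and the other groups overlapped. Mgp fell 5.68-fold in QKI-KD, from 1.74 ± 0.326 to 0.306 ± 0.0446 CPM (−2.50 on the log2 scale, SE 0.21, adjusted p 1.19e-08). In RBFOX2-KD, at 1.29 ± 0.168 CPM, the log2 fold change of −0.44 (SE 0.18, adjusted p 0.0411) did not pass in 4 of 6 refits with a library removed, falling to −0.28 without control 2 (adjusted p 0.221), and was also lost with library totals (adjusted p 0.0681) and in the normalised table (0.0759). In RBPMS-KD it was −0.02, with a 95% interval from −0.39 to 0.35 (adjusted p 0.918).

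The knockdowns were then compared with each other, within the same fit of all 12 libraries, to ask whether a member differed between them. Spp1, Tnc and Islr were listed for their changes, so nothing is read from the counts that follow. Between RBPMS-KD and RBFOX2-KD, 1 member passed both thresholds (Tnc), where 7.52% of all genes did, and 5 of 10 passed an adjusted p under 0.05, where 56.7% did. RBPMS-KD and QKI-KD differed in 2 members (Spp1 and Mgp, 12.2% of all genes), and RBFOX2-KD and QKI-KD in 3 (Spp1, Tnc and Mgp, 18.4% of all genes), with 9 of 10 members past an adjusted p under 0.05 in each, against 61.0% and 68.5% of all genes.

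**Figure D3:**
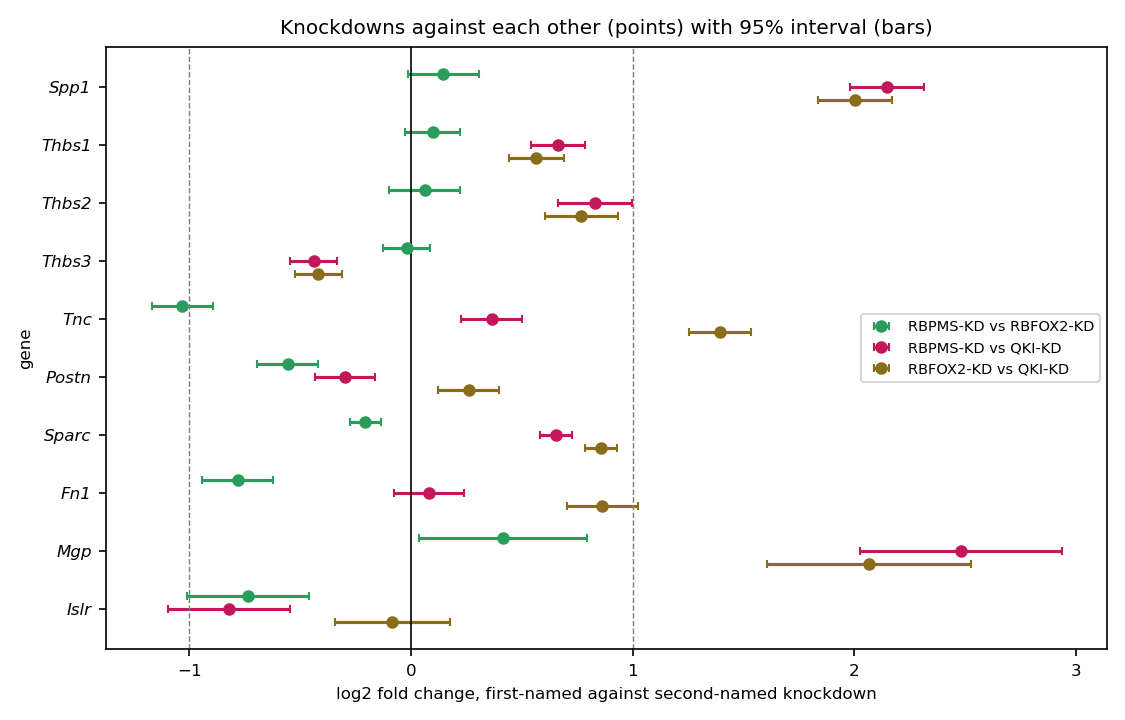
Log2 fold change of the first-named against the second-named knockdown (horizontal axis) for each member (vertical axis), colored by pair, with points for the edgeR estimate, bars for its 95% interval and dashed lines at the fold threshold of 1 in either direction. Spp1 and Mgp were higher by 2.00 to 2.48 in RBPMS-KD and RBFOX2-KD than in QKI-KD, and Tnc was lower in RBPMS-KD than in RBFOX2-KD.

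On the log2 scale, Mgp in RBPMS-KD exceeded its level in QKI-KD by 2.48 (SE 0.21, adjusted p 2.18e-08), and RBFOX2-KD exceeded QKI-KD by 2.07 (SE 0.22, adjusted p 1.81e-07). Its difference between RBPMS-KD and RBFOX2-KD was 0.41 (95% interval 0.037 to 0.79, adjusted p 0.0578). Sparc was higher in RBPMS-KD and RBFOX2-KD than in QKI-KD by 0.65 and 0.86 (SE 0.034 for both, adjusted p 2.68e-11 and 4.58e-13). Thbs2 was likewise higher in both than in QKI-KD, by 0.83 and 0.77 (adjusted p 7.18e-08 and 1.24e-07). Thbs3 was lower in both than in QKI-KD, by −0.44 and −0.42 (adjusted p 7.74e-07 and 9.53e-07). QKI-KD was therefore the lowest of the knockdowns for Mgp, Sparc and Thbs2 and the highest for Thbs3.

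Thbs1 was higher in RBPMS-KD and RBFOX2-KD than in QKI-KD by log2 fold changes of 0.66 and 0.57 (SE 0.058 for both, adjusted p 2.79e-08 and 1.48e-07). Between RBPMS-KD and RBFOX2-KD its difference was 0.097, with a 95% interval from −0.026 to 0.22 (adjusted p 0.167), and the normalised table gave −0.19 (adjusted p 0.0340), so neither the direction nor the call was stable. The adjusted p was 0.00495 without RBPMS-KD 2 (0.16). For Thbs2 and Thbs3 the differences between RBPMS-KD and RBFOX2-KD were 0.06 (95% interval −0.098 to 0.22) and −0.02 (−0.13 to 0.087), with adjusted p of 0.508 and 0.762.

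Fn1 was lower in RBPMS-KD than in RBFOX2-KD by −0.78 (SE 0.076, adjusted p 1.56e-07) and higher in RBFOX2-KD than in QKI-KD by 0.86 (SE 0.076, adjusted p 1.93e-08). Its difference between RBPMS-KD and QKI-KD was 0.08, with a 95% interval from −0.079 to 0.24 (adjusted p 0.371). It was 0.20 without RBPMS-KD 2, the library with the lowest Fn1 of all (adjusted p 4.63e-05), and −0.72 in the normalised table (adjusted p 6.76e-07), where Fn1 in RBFOX2-KD and QKI-KD no longer differed by a called amount (0.099, adjusted p 0.0725). Postn differed between each pair, with −0.56 between RBPMS-KD and RBFOX2-KD (adjusted p 1.21e-06), −0.30 between RBPMS-KD and QKI-KD (adjusted p 6.79e-04) and 0.26 between RBFOX2-KD and QKI-KD (adjusted p 0.00178). For the members listed for their changes, Spp1 was higher in RBPMS-KD and RBFOX2-KD than in QKI-KD by 2.15 and 2.00. Tnc was lower in RBPMS-KD than in RBFOX2-KD by −1.03 and higher in RBFOX2-KD than in QKI-KD by 1.39. Islr was lower in RBPMS-KD than in RBFOX2-KD and QKI-KD by −0.74 and −0.82 and differed by −0.085 between RBFOX2-KD and QKI-KD.

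Across the 12 libraries, which fall into 4 groups of 3, the genes most like Spp1 in log2 CPM among 10038 others with a mean of at least 5 CPM were Nfs1 (Pearson's r 0.9956), Epdr1 (0.9949) and Cisd2 (0.9943). The control mean of Nfs1 was 47.1 CPM, and those of RBPMS-KD, RBFOX2-KD and QKI-KD were 40.6, 37.1 and 17.7 CPM. Most like Tnc were Mtus1 (0.9871), Zfp62 (0.9865) and Rgl2 (0.9861), of which Rgl2 had means of 56.8, 72.9, 108 and 59.9 CPM in the same order of groups. Most like Islr were Pdk3 (0.9907), Fbln5 (0.9893) and Cacnb3 (0.9830). Fbln5, an elastic fibre gene, had a control mean of 235 CPM, against 69.6 CPM in RBFOX2-KD and 71.5 CPM in QKI-KD. Within the list, the pair with the highest r was Spp1 and Mgp (0.963) and the pair with the lowest was Spp1 and Thbs3 (−0.965). These values describe 12 libraries that share 4 group means.

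Receptors of these proteins were examined next, from a list of 17 integrins, syndecans and other receptors of which 14 were tested. In RBPMS-KD 3 were higher and 6 lower at an adjusted p under 0.05, in RBFOX2-KD 7 higher and 6 lower, and in QKI-KD 4 higher and 9 lower, beside 30.4% of all genes higher and 29% lower in RBPMS-KD, 30.1% and 30.1% in RBFOX2-KD and 32.9% and 34% in QKI-KD. The list's median log2 fold changes were −0.09, 0.15 and −0.16. Cd44, a receptor of osteopontin and hyaluronan, had a control mean of 230.1 CPM and rose to 705.5 CPM with RBPMS-KD, 628 CPM with RBFOX2-KD and 616 CPM with QKI-KD (log2 fold changes 1.62, 1.45 and 1.42, the highest adjusted p 1.02e-13). Sdc1, a heparan sulfate proteoglycan, rose by 1.69 in RBPMS-KD, 1.60 in RBFOX2-KD and 1.33 in QKI-KD (adjusted p 9.62e-16, 6.93e-16 and 3.40e-15).

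Integrin subunits moved in both directions. Itga5, the alpha subunit of the classical fibronectin receptor, chosen after its values were seen, rose by 0.96, 0.65 and 0.53 in RBPMS-KD, RBFOX2-KD and QKI-KD (adjusted p 2.23e-12, 2.35e-10 and 1.85e-09). Itgb8, which pairs with Itgav to bind latent TGF-beta, fell from 42.8 CPM to 11.9 CPM in RBPMS-KD and 3.32 CPM in QKI-KD (−1.86 and −3.70, adjusted p 2.05e-11 and 4.71e-15). Itga9, a subunit of a tenascin and osteopontin receptor, fell from 19.1 to 4.65 CPM in QKI-KD (−2.04, adjusted p 3.62e-14) and also fell in RBPMS-KD (−1.19, adjusted p 6.33e-11) and RBFOX2-KD (−1.37, adjusted p 7.41e-12). Itgb1, the common beta subunit of the fibronectin receptors, fell by 2.68 in RBFOX2-KD (adjusted p 6.90e-19).

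Among 21 other matricellular genes, 15 were tested. At an adjusted p under 0.05, 4 were higher and 4 lower in RBPMS-KD, 6 and 5 in RBFOX2-KD and 7 and 5 in QKI-KD. Over all genes, 30.4% were higher and 29% lower in RBPMS-KD, 30.1% and 30.1% in RBFOX2-KD and 32.9% and 34% in QKI-KD. Tgfbi, the paralogue of periostin, rose from a control mean of 5.14 CPM to 14.1 CPM with RBPMS-KD, 21.7 CPM with RBFOX2-KD and 12.7 CPM with QKI-KD (1.45, 2.08 and 1.30, adjusted p 8.46e-11, 5.43e-13 and 1.59e-10). Ccn5, a CCN protein that lacks the C-terminal domain of its relatives, rose in RBPMS-KD from 43.5 to 119 CPM (1.45, adjusted p 3.57e-13). Past both thresholds, 3 were higher and 3 lower in QKI-KD, and those that fell were Smoc1, a relative of Sparc, from 558 to 144 CPM (−1.95, adjusted p 1.49e-15), Ccn2, the connective tissue growth factor, from 944 to 378 CPM (−1.32, adjusted p 6.56e-13) and Ccn3 from 71.4 to 28.5 CPM (−1.33, adjusted p 1.74e-12). Of all genes tested, 17.5% passed both thresholds in QKI-KD. The list's medians were 0.35, 0.67 and 0.30, beside 0.0085, 0.015 and 0.0070 over all genes. Those in RBPMS-KD and RBFOX2-KD were the values of Comp and Spock2, at 0.840 and 0.804 CPM in control. The 5 lower in RBFOX2-KD were Ccn1, Ccn2, Ccn3, Ccn4 and Smoc1. Of the 6 higher there, Smoc2, Tnr, Tnn and Spock2 had control means of 0.0492 to 0.804 CPM. These genes were chosen after their values were seen.

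**Figure D4:**
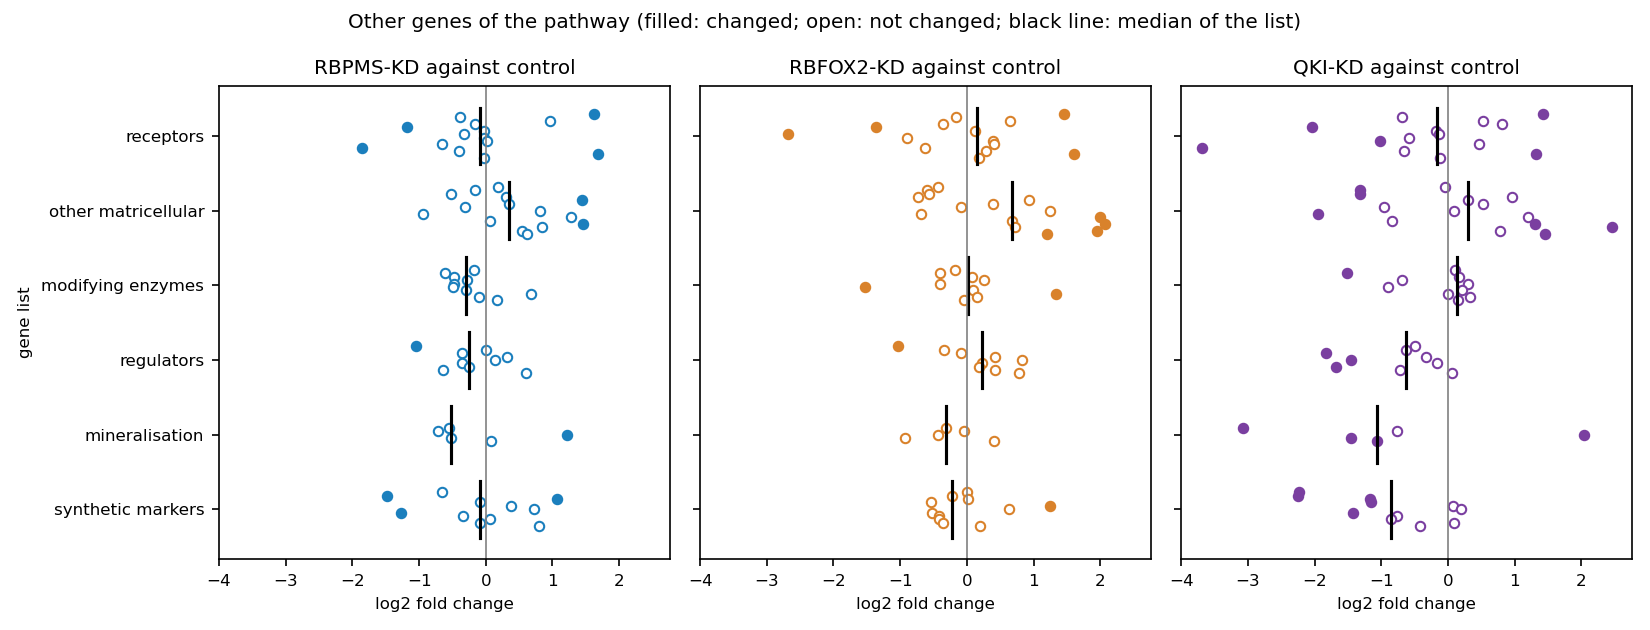
Log2 fold change against control (horizontal axis) of the tested genes in 6 lists (vertical axis), one panel per knockdown on a shared scale. Each point is a gene, filled where it passed both thresholds, and a black line marks the median of the list, which in QKI-KD lay at −1.06 for mineralisation genes and −0.85 for synthetic markers.

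Of the 10 enzymes that modify these proteins, 0, 2 and 1 passed both thresholds in RBPMS-KD, RBFOX2-KD and QKI-KD, beside 9.66%, 11.7% and 17.5% of all genes. At an adjusted p under 0.05, in RBPMS-KD 2 were higher and 7 lower, in RBFOX2-KD 4 and 4 and in QKI-KD 5 and 3. Of all genes, 59.4%, 60.3% and 66.9% passed that adjusted p in the same order. The list had medians of −0.29, 0.023 and 0.13. Ggcx, the carboxylase that activates matrix Gla protein, fell in RBFOX2-KD from 93.0 to 32.3 CPM (−1.53, adjusted p 4.24e-15). Tgm2, a protein cross-linking transglutaminase, chosen after its values were seen, rose there from 2.60 to 6.55 CPM (1.34, adjusted p 3.04e-09). B3glct, which adds glucose to the O-fucose of thrombospondin repeats, fell in QKI-KD from 62.0 to 21.8 CPM (−1.51, adjusted p 4.48e-15).

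A list of 9 ligands and transcription factors known to regulate such genes had 3 higher and 5 lower in RBPMS-KD, 6 and 2 in RBFOX2-KD and 0 and 8 in QKI-KD at an adjusted p under 0.05, beside 30.4% of all genes higher and 29% lower, 30.1% and 30.1%, and 32.9% and 34%, with medians of −0.25, 0.22 and −0.62. In QKI-KD, Prrx1, a mesenchymal homeobox factor, fell from 229 to 64.3 CPM (−1.83, adjusted p 4.29e-16), Tgfb2 from 142 to 44.3 CPM (−1.68, adjusted p 5.40e-13) and Sox9 from 57.8 to 21.2 CPM (−1.45, adjusted p 2.48e-13). Egr1, an immediate early factor, fell by 1.05 in RBPMS-KD and 1.04 in RBFOX2-KD (adjusted p 2.35e-08 and 2.34e-08).

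Synthetic smooth muscle markers other than the 10 members numbered 13, with 11 tested. At an adjusted p under 0.05, 4 were higher and 5 lower in RBPMS-KD, 3 and 5 in RBFOX2-KD and 2 and 8 in QKI-KD. Over all genes, 30.4% were higher and 29% lower in RBPMS-KD, 30.1% and 30.1% in RBFOX2-KD and 32.9% and 34% in QKI-KD. The medians of the list were −0.079, −0.22 and −0.85. Klf4, a factor that represses contractile genes, rose 2.09-fold in RBPMS-KD (1.07, adjusted p 3.85e-12) and fell in QKI-KD from 107 to 47.5 CPM (−1.17, adjusted p 4.97e-13). Lum, a collagen-binding proteoglycan, fell in RBPMS-KD and QKI-KD (−1.26 and −1.43, adjusted p 2.61e-06 and 4.43e-07). Col8a1, a short-chain collagen, fell from 524 to 112 CPM in QKI-KD (−2.23, adjusted p 4.11e-14), and Krt8 rose from 30.6 to 72.6 CPM in RBFOX2-KD (1.25, adjusted p 4.61e-12).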

How the data were processed

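RNA-seq of 12 libraries from rat PAC1 cells was used, with groups and replicate numbers from the sample titles. The authors deposited raw counts per gene symbol for 33294 genes and a quantile-normalised signal for 22320 genes. The study's methods give alignment to mRatBN7.2 with STAR (2.5.2a in the submitters' processing notes) and counting with featureCounts. Those methods also give a later STAR version and subsampling of all samples to an equal depth, whereas the totals here were uneven. Whether they describe this count table in full is therefore not known. Handling of strand and of reads shared between genes is not given in the sources used here, so paralogues such as Thbs1 and Thbs2 carry that uncertainty. The signal was recovered by adding 5 to each count and quantile normalising (largest difference 3.38e-09). Of counts from 1 to 19, 68.1% were even. Whether both ends of a fragment were counted is not given in the sources used here, so halved counts were tried.

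Counts were tested with edgeR 4.0.16 (R 4.3.3), using filterByExpr, TMM scaling and glmQLFTest, two-sided, in 1 fit of all 12 libraries, with Benjamini-Hochberg adjustment over 18438 genes. Changed genes had an adjusted p below 0.05 with a log2 fold change beyond 1 in either direction. Alternatives used DESeq2 1.42.0, limma 3.58.1 on the normalised signal, other scalings and filters, and fits without single libraries. The fit was tested on simulated data. With 3 libraries against 3, an exact permutation test cannot give a p below 0.1. No pair of replicates agreed within sampling noise (chi-square per degree of freedom 4.64 to 57.8 in 12 pairs). Depth was 111 to 152 M counts per library, and labels give no batch.

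The members and lists were chosen with earlier results of these data known. Named genes were the 10 members, the siRNA targets, from each list up to 3 changed genes per knockdown with the largest change and a mean of at least 5 CPM, and the 3 genes most correlated with each of Spp1, Tnc and Islr. Other genes are marked in the text as chosen after their values were seen, apart from markers and Islr2, given as checks. Tnxb was in a list but is not analysed here. Splicing was not analysed here.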

Additional observations from a re-analysis of the deposited data

How the results depend on the processing

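Of the log2 fold changes of members and named genes recomputed under the alternatives, 1460 kept their sign and their side of an adjusted p of 0.05, 17 lost that p, 14 gained it and 23 changed sign. A log2 fold change of 1 was crossed, with the sign kept, in 8 cases. These were Fn1 in RBPMS-KD in the normalised table with either pseudocount, Egr1 in RBPMS-KD without control 3 (−0.97) or RBPMS-KD 2 (−0.95), Egr1 in RBFOX2-KD with library totals (−0.98) or without control 3 (−0.95), Lum in RBPMS-KD without control 3 (−0.96) and Tnc between RBPMS-KD and RBFOX2-KD. Without the fold threshold, 9, 8 and 9 members passed in RBPMS-KD, RBFOX2-KD and QKI-KD against control, and 5, 9 and 9 between RBPMS-KD and RBFOX2-KD, RBPMS-KD and QKI-KD, and RBFOX2-KD and QKI-KD. Tnc, the only member past both thresholds between RBPMS-KD and RBFOX2-KD, did not pass with glmTreat (0 members) or without RBPMS-KD 2, where its value was −0.96 against −1.03, so leaving out 1 library gave 0 to 1 members. With a mean of at least 200 counts, Mgp was not tested, which left 1 member between RBPMS-KD and QKI-KD. It also left 2 members between RBFOX2-KD and QKI-KD and 3 in QKI-KD against control. Signs changed only for differences near 0 in the count fits. Mgp in RBPMS-KD against control was 0.043 in the normalised table with either pseudocount and ran from −0.23 to 0.13 when 1 library was left out. Sparc in RBFOX2-KD ran from −0.0038 to 0.034. Postn in QKI-KD was 0.060 with library totals, 0.0087 with at least 200 counts and 0.039 in the normalised table, and ran from −0.11 to 0.014. Between RBPMS-KD and RBFOX2-KD, Thbs1 was −0.00083 with library totals and −0.19 in the normalised table, Thbs2 was −0.037 with library totals and ran from −0.020 to 0.12, and Thbs3 ran from −0.035 to 0.0017. Between RBPMS-KD and QKI-KD, Fn1 was −0.048 with library totals and −0.72 in the normalised table, where its value is set by its rank. Between RBFOX2-KD and QKI-KD, Islr ran from −0.21 to 0.011. Library totals moved the median of all genes from −0.0096 to −0.11 between RBPMS-KD and RBFOX2-KD and from 0.010 to −0.12 between RBPMS-KD and QKI-KD, and the share of changed genes that were higher from 41.3% to 31.0% and from 53.6% to 41.4%.

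Over all genes, 1781, 2156 and 3231 changed against control and 1386, 2248 and 3389 between knockdowns. With at least 200 counts these were 692, 840, 1484, 435, 929 and 1515, with glmTreat 603, 819, 1704, 313, 933 and 1791, and without the fold threshold 10946, 11113, 12336, 10455, 11249 and 12636. In the normalised table with a pseudocount of 5, 824 changed between RBPMS-KD and RBFOX2-KD. Same-numbered libraries showed no consistent shared deviation (r from −0.35 to 0.23, above 0.1 in 4 of 18 pairs). Libraries with different numbers had r from −0.32 to 0.41. With 3 libraries per group, these values cannot settle whether the numbers pair them. With the replicate number as a block, 1752, 2110, 3203, 1361, 2209 and 3360 genes changed, with 2, 3, 4, 1, 2 and 3 members, and the 0.40 of Mgp between RBPMS-KD and RBFOX2-KD passed an adjusted p under 0.05 (0.0269). That Mgp difference also passed with no filter on low counts (0.0299) and with halved counts (0.0470). It passed without RBFOX2-KD 2 (0.0405) or RBPMS-KD 3 (0.0158) as well, but not under the other alternatives. Mgp, at 32 to 312 counts, is the member that depth limits most.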

Other observations

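Because matrix Gla protein and osteopontin both restrain mineral deposition in the vessel wall, 10 genes of mineralisation were looked at beside them. Of these, 5 were tested, and Alpl, Ibsp, Msx2, Dlx5 and Sp7 had at most 14 counts in any library. In QKI-KD, Ankh, which exports the mineralisation inhibitor pyrophosphate, fell from 229 to 27.3 CPM (log2 fold change −3.07, SE 0.067, edgeR adjusted p 2.21e-16), and Bmp4 fell from 69.3 to 25.2 CPM (−1.46, adjusted p 4.46e-15). Bmp2, an osteogenic ligand, rose there from 9.21 to 38.1 CPM (2.05, adjusted p 2.92e-12) and in RBPMS-KD to 21.4 CPM (1.21, adjusted p 6.51e-09). At an adjusted p under 0.05, 1 gene was higher and 2 lower in RBPMS-KD, 1 and 3 in RBFOX2-KD and 1 and 3 in QKI-KD. Of all genes, 59.4%, 60.3% and 66.9% passed that adjusted p in the same order. The list medians were −0.52, −0.32 and −1.06 beside 0.0085, 0.015 and 0.0070 over all genes.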
